A study of Mus musculus with 2 samples.

Results

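The Trbv genes are the variable (V) segments of the T cell receptor beta chain. They were taken as every gene whose GENCODE M21 symbol starts with Trbv, which gave 35 of the 55536 annotated genes in the gene tables. Of these, 22 are annotated as V segments (TR_V_gene) and 13 as V segment pseudogenes. The RNA was polyA-selected and came from regulatory T cells, CD4 T cells that restrain immune responses, of a male mouse at 9 weeks of age. The sample was sequenced as 2 libraries, which the labels give as technical replicates 1 and 2 of biological replicate 1. No treatment, genotype or strain is named in the sources used here, and there is no second group. Every SD below is therefore the spread between technical libraries (n = 2) and says nothing of other mice. Estimated counts over all annotated genes came to 34697128 in library 1 and to 32049199 in library 2.

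Each developing T cell cuts and joins 1 V, 1 D and 1 J segment on a beta allele, and transcription then runs from the promoter of the chosen V segment through the joined exon into a constant region. The level of a V segment in a population of T cells thus reflects how many cells carry it and how much receptor RNA each makes. In this bulk RNA more cells using a segment and more RNA per cell cannot be told apart. The V exon encodes the CDR1 and CDR2 loops and the start of the CDR3 loop, the last of which opens at a conserved cysteine. Endogenous superantigens remove T cells that bear certain V segments in some mouse strains, and with no strain given the levels below carry no statement about such removal.

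The labelled cell type was checked against its markers. Foxp3 stood at 109 ± 1.68 TPM (a length-corrected level, scaled to the same total in each library), Il2ra at 368 ± 4.98 TPM and Cd4 at 318 ± 23.9 TPM. Of genes of other T cells, Cd8a had 1.69 TPM in library 1 and 2.84 in library 2, Cd8b1 had 24.1 and 23.3 TPM, and the gamma-delta constant gene Trdc had 3.98 and 3.87 TPM. T cells of other kinds carry beta V segments too, and their part in the levels was not tested. The gamma constant genes had 13.2 and 16.3 TPM for Tcrg-C1, 6.74 and 8.44 TPM for Tcrg-C2, and 7.99 and 6.25 TPM for Tcrg-C4. Zbtb16, which marks natural killer T cells, was at 0.02 TPM in each library, while Klrb1c, a marker of natural killer cells and of many natural killer T cells, had 1.73 and 1.68 TPM. The recombinase genes were at or near 0, with 1 estimated count for Rag1 and 2 for Rag2 in library 1 and 0 for both in library 2.

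The 3' ends of the leading segments are printed first, because this end joins the D segment. Each line holds the last 90 coding bases of the GENCODE M21 transcript on the GRCm38 assembly, 5' to 3', with the codon of the CDR3 cysteine in capitals. Trbv3 is the leading segment by counts, the 3 Trbv13 segments form the leading family, and Trbv31 is the only member on the minus strand.
Trbv3: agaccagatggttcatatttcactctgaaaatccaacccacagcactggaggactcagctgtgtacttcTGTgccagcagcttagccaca
Trbv13-1: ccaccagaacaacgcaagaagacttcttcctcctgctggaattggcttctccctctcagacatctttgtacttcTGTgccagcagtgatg
Trbv13-2: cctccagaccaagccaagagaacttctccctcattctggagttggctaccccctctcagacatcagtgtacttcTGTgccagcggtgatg
Trbv13-3: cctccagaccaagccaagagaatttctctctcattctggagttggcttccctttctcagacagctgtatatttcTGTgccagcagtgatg
Trbv31: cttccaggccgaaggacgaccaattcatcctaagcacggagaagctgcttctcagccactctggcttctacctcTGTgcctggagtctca
These ends lie at chr6:41048739-41048828, chr6:41116379-41116468, chr6:41121743-41121832 and chr6:41130496-41130585 on the plus strand and at chr6:41557691-41557780 on the minus strand. All 5 lie in the second exon of their gene, the exon that encodes the V domain. Among the 22 segments not annotated as pseudogenes, called coding segments below, this exon measured 290 to 304 bases. In 20 of the 22 the frame of the annotated start codon had no stop. In these the last cysteine codon was TGT in 18 and TGC in 2, with 11 to 21 bases from it to the segment's end. The 11 belongs to Trbv1, where another TGC lies shortly 5' of the last one, right after a tyrosine codon. Which of these codons opens the CDR3 of Trbv1 was not tested. Outside the 20 were Trbv21 and Trbv4. The more abundant transcript of Trbv21, Trbv21-201 (71.8% of the gene's TPM in library 1 and 100% in library 2), has no leader exon. The last whole codon of Trbv4 is TAA, 3' of the cysteine codon and within the stretch that joining can trim. The end of Trbv4 is printed with that stop in capitals.
Trbv4: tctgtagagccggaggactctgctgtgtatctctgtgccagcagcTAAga
It lies at chr6:41059837-41059886 on the plus strand, and TAA is codon 114 of 114 in the frame of the annotated start.

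Trbv segments summed to 2585 TPM in library 1 and 2619 TPM in library 2, which rested on 18962 and 18549 estimated counts. Of the 35 members, 23 reached 1 TPM or more in both libraries: all 22 coding segments, and 1 pseudogene. The 22 had a median of 113 TPM. They spanned a 169-fold range of mean levels, with Trbv13-2 highest and Trbv21 lowest, and 14 of them lay within 2-fold of the median. At 100 TPM or more in both libraries stood 12 segments. The effective number of segments, the exponential of the Shannon entropy of the TPM shares, was 17.6 ± 0.0353.

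**Figure D1:**
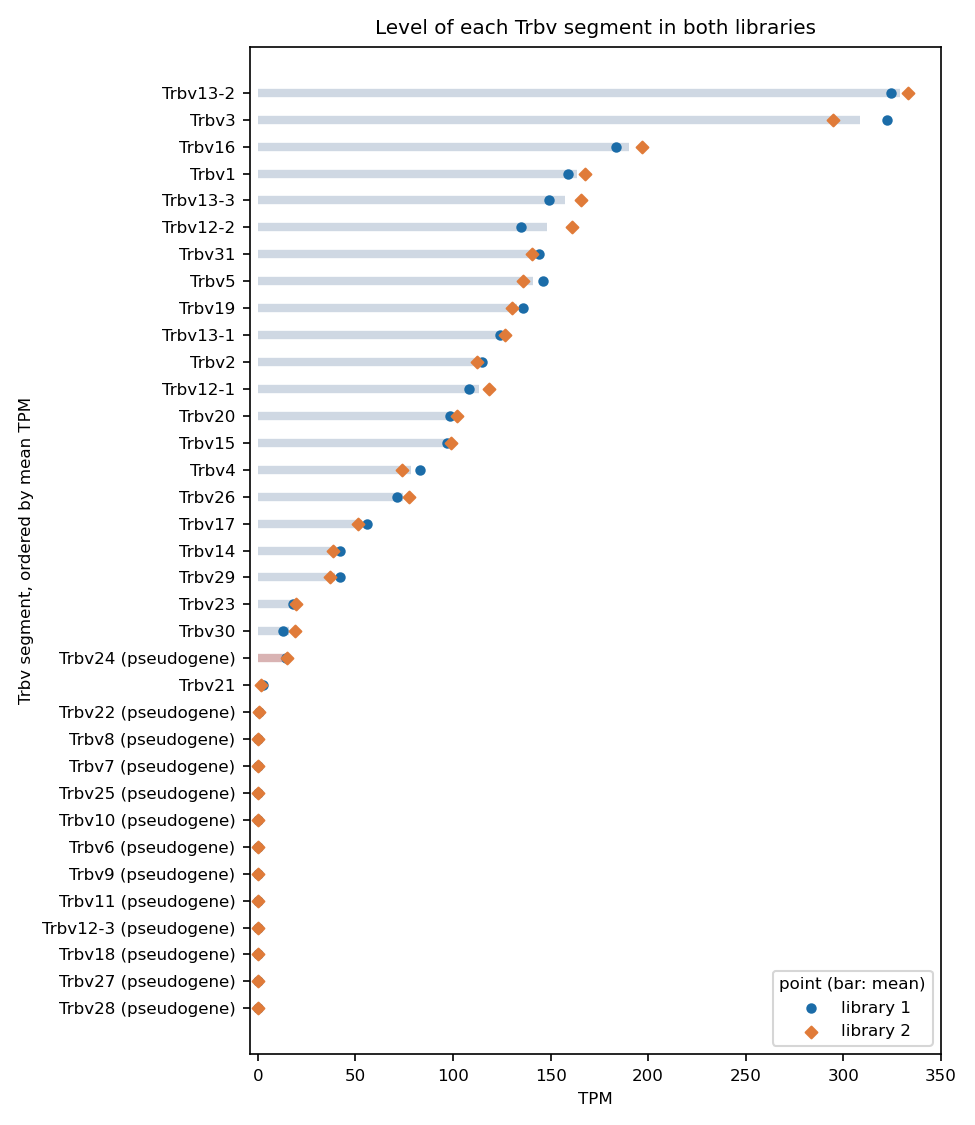
TPM of each of the 35 Trbv segments (x axis) in library 1 (circles) and library 2 (diamonds), with the mean as a bar and segments ordered by mean down the page. Trbv13-2 and Trbv3 stand at 295 TPM or more in both libraries, and Trbv24 is the only annotated pseudogene whose bar can be seen.

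Trbv13-2, listed by RefSeq also as Tcrb-V8.2, had 325 TPM in library 1 and 333 TPM in library 2. Trbv3, listed also as Tcrb-V16, had 323 and 295 TPM. Both values of Trbv13-2 lay above both values of Trbv3, although the values of library 1 nearly met. These segments took 12.6 ± 0.115% and 11.9 ± 0.863% of the summed Trbv TPM. By TPM no other segment came near them: Trbv16 had 183 TPM in library 1 and 197 TPM in library 2, a share of 7.31 ± 0.307%. Trbv1, the segment farthest upstream, had 159 and 168 TPM.

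Below these the levels ran close together. Trbv13-3 had 149 TPM in library 1 and 165 TPM in library 2, Trbv12-2 had 135 and 161 TPM, Trbv31 had 144 and 141 TPM, and Trbv5 had 146 and 136 TPM. From Trbv1 down to Trbv5 each neighbour in the order overlapped the next. Trbv19 had 135.7 TPM in library 1 and 130.4 TPM in library 2, just below the lower value of Trbv5, 135.96 TPM. Trbv13-1 had 124 and 127 TPM, Trbv2 had 115 and 112 TPM, and Trbv12-1 had 108 and 119 TPM. The libraries did not overlap between Trbv19 and Trbv13-1 or between Trbv13-1 and Trbv2, but did between Trbv2 and Trbv12-1. These 12 segments held 79.1% of Trbv TPM in library 1 and 79.6% in library 2, and the first 5 of them held 44.0% and 44.2%.

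The other 10 coding segments were lower. Trbv20 averaged 100.2 ± 2.59 TPM and Trbv15 97.8 ± 1.43 TPM, with overlapping libraries. Trbv4 stood at 78.6 ± 6.61 TPM and Trbv26 at 74.6 ± 4.31 TPM, also overlapping. Trbv17 followed at 53.4 ± 3.27 TPM, and Trbv14 and Trbv29 overlapped at 40.3 ± 2.35 and 39.6 ± 3.86 TPM. Trbv23 stood at 18.7 ± 0.877 TPM and Trbv30 at 13.1 TPM (library 1) and 18.9 TPM (library 2). Trbv21 was far below the rest, with 2.48 TPM in library 1 and 1.42 in library 2, from 14 and 7 estimated counts. Of the 22 adjacent pairs in the order of all 23 detected members, the library values were separate in 12 and overlapped in 10. RefSeq gives another status than M21 for 2 members: it calls Trbv29 a pseudogene and Trbv24 a V segment.

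The pseudogenes were near 0 with 1 exception. Trbv24 had 14.5 TPM in library 1 and 15.2 TPM in library 2, from 91 and 93 estimated counts. Both values lay above those of Trbv21 and overlapped with those of Trbv30. Its 298 windows of 50 bases occur in no other annotated transcript, on either strand. Of its coding relatives, Trbv23 is 75.8% identical over 347 bases and Trbv26 74.6% over 343. They had 18.1 and 71.5 TPM in library 1, and 19.3 and 77.6 TPM in library 2. The 3' ends of the 3 segments are printed to show where the frame of Trbv24 is broken, with the cysteine codon and the codon 2 places before it in capitals.
Trbv24: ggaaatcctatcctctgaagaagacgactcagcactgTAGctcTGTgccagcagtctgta
Trbv23: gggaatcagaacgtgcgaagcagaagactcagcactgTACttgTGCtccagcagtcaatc
Trbv26: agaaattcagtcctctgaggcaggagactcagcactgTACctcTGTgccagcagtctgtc
They lie on the plus strand at chr6:41218498-41218557, chr6:41216467-41216526 and chr6:41227934-41227993. Where Trbv23 and Trbv26 hold TAC, a tyrosine codon, Trbv24 holds the stop TAG, at codon 109 of 115 in the frame of its ATG. It is the only stop in that frame. RNA of this segment was thus present at a level near that of Trbv23 and Trbv30, although its reference frame has a stop before the cysteine.

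The other 12 pseudogenes stayed under 1 TPM in each library. Trbv22 had 3 estimated counts in each library, or 0.59 and 0.60 TPM. Trbv7 had 2 counts and Trbv10 had 1 in library 1, with 0 in the other library, while Trbv8 and Trbv25 had 0 in library 1 and 1.69 and 1.00 in library 2. Trbv6, Trbv9, Trbv11, Trbv12-3, Trbv18, Trbv27 and Trbv28 had 0 counts in both libraries. A count of 0 read as up to 3 counts allows each a share of up to 0.0158% of Trbv counts in library 1 and 0.0162% in library 2, a limit that covers counting error only. In 12 of the 13 pseudogenes every frame of the last exon held at least 1 stop. The exception was Trbv10, whose single exon had 1 frame free of stops. The annotation gives a leader exon to 2 of the 13, Trbv12-3 and Trbv24.

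Trbv12-3 was at 0 although it sits among well-used segments and resembles them. It matched Trbv12-2 at 83.0% of 370 aligned bases and lies between Trbv13-2 and Trbv13-3. Its frame holds 4 stops, and the surroundings of the first, TAA at codon 73 of 124, are printed with that codon in capitals.
Trbv12-3: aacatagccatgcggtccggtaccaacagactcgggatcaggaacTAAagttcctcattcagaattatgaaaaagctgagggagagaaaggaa
The stretch is chr6:41127876-41127968 on the plus strand. Trbv12-2 holds the same TAA bases at the matching place, but there they fall in another frame. The frame of the start codon of Trbv12-2 has no stop. The marked TAA is thus not a base at which these segments differ. The coding members Trbv12-1 and Trbv12-2 are 88.2% identical over 372 bases, differing at 44. Their levels also differed between each other by more than the libraries did, at 108 and 119 TPM for Trbv12-1 in libraries 1 and 2 and 135 and 161 TPM for Trbv12-2.

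The Trbv13 family took the largest part of any family. Its 3 members, named Tcrb-V8.3, Tcrb-V8.2 and Tcrb-V8.1 in RefSeq for Trbv13-1, Trbv13-2 and Trbv13-3, held 23.1% of Trbv TPM in library 1 and 23.9% in library 2. Trbv13-2 and Trbv13-3 are 90.6% identical over 340 coding bases, the closest match among all members, and differ at 32 of them. Their levels were nonetheless apart, with Trbv13-2 at 325 TPM or more and Trbv13-3 at 165 TPM or less in both libraries. Only 1 of the 291 windows of 50 bases in each occurs in the other, and the model's own SD on their counts was at most 1.98 counts, against 1997 counts for Trbv13-2 and 917 for Trbv13-3 in library 1. The Trbv12 family held 9.39% and 10.7%.

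Read sharing with other genes was limited. In 28 of the 35 members every window of 50 bases was found in no other annotated transcript. Outside the Trbv12 and Trbv13 families the closest relative of a member was 66.9% to 76.6% identical. Within the families, Trbv12-2 shared 4 windows with Trbv12-3, and Trbv13-2 shared 1 with Trbv13-3. For the other 3 the sharing came from overlapping annotation. Trbv4 and Trbv5 lie under exons of the noncoding gene 5830405F06Rik on the same strand, and 27.9% and 22.6% of their windows were unique. That gene was given 36.3 and 41.5 counts in libraries 1 and 2, against 605 and 522 for Trbv4 and 984 and 889.9 for Trbv5. The pseudogene Trbv8 has no unique window, since it lies within AC153851.1. Annotation gives 2 transcripts to 6 members. For Trbv31, transcript Trbv31-201 took 80.4% and 81.7% of the gene's TPM in libraries 1 and 2, and for Trbv13-1, transcript Trbv13-1-201 took 69.6% and 65.1%.

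The members lie on chromosome 6 of GRCm38, from Trbv1 at 40891229 to Trbv31 at 41558452, with 34 on the plus strand. Trbv31 alone lies downstream of the D, J and constant segments, and by its orientation it joins by inversion. Levels along the locus were compared by distance from Trbd1, the first D segment. Over the 21 coding segments upstream of Trbd1, mean TPM was higher at larger distance. Spearman's rho was 0.65 and Pearson's r 0.51, a description across segments that share the same libraries. The 7 most distal, Trbv1 to Trbv13-1 (641 to 417 kb upstream), held 40.9% of Trbv TPM in library 1 and 39.3% in library 2. The 7 in the middle, Trbv12-2 to Trbv17 (414 to 370 kb), held 38.2% and 39.9%. The 7 nearest to the D segments, Trbv19 to Trbv30 (354 to 251 kb), held 14.8% in each library, with a median of 39.6 TPM against 125 TPM in the distal and 148 TPM in the middle block. Trbv31 lies 24.5 kb downstream of Trbd1 and stood at 142 ± 2.50 TPM. Between Trbv30 and the D segments lie trypsinogen genes, which encode digestive enzymes of the pancreas. Of 28 other annotated genes inside the locus, 2 were detected: the trypsinogen gene Prss2, with 2.14 TPM in library 1 and 1.89 in library 2, and 5830405F06Rik, with 2.07 and 2.32 TPM. The pancreatic genes Cpa1 and Ctrb1 had 0 counts in both libraries, and Cela1 stood at 3.83 and 4.54 TPM.

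**Figure D2:**
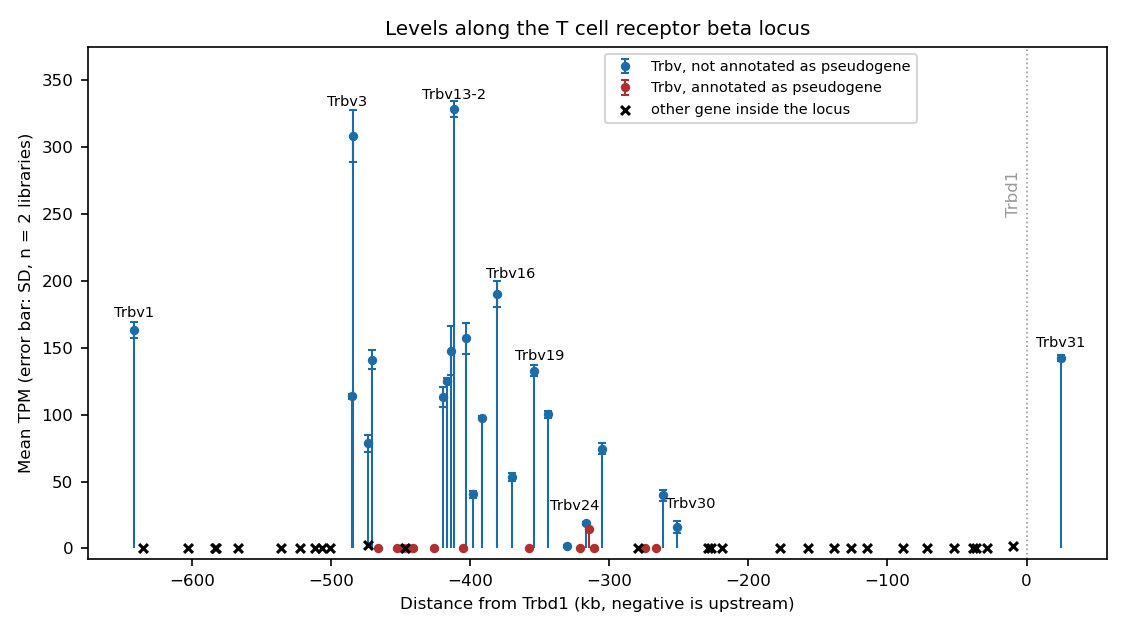
Mean TPM of each Trbv segment (blue, not annotated as pseudogene; red, annotated as pseudogene; error bar, SD of 2 libraries) and of 28 other genes inside the locus (crosses) against distance from Trbd1 in kb. The 7 coding segments nearest to Trbd1 from upstream have a median of 39.6 TPM, Trbv31 downstream stands at 142 TPM, and the other genes had 2.32 TPM or less in each library.

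Which segment leads depended on the unit. By estimated counts Trbv3 came first, with 2768 counts in library 1 and 2456 in library 2, a share of 14.6% (95% Clopper-Pearson interval 14.1 to 15.1) and 13.2% (12.8 to 13.7). Trbv13-2 had 1997 and 1989 counts, a share of 10.5% (10.1 to 10.98) and 10.7% (10.3 to 11.2). These intervals cover counting error only, since sequenced copies of 1 molecule are not independent. TPM divides by effective length, which is 406 bases for Trbv3 and 291 for Trbv13-2, and by that measure the order turned. Trbv19 and Trbv2, with effective lengths of 517 and 511 bases, ranked 3 and 6 by counts but 9 and 11 by TPM. Across the 22 coding segments the shares by TPM and by counts had a Spearman rho of 0.95, a description over segments from the same libraries. The effective number was 17.1 by estimated counts. The longer transcripts include annotated 5' untranslated sequence: of 455 bases of Trbv3 351 are coding, and of 340 bases of Trbv13-2 all are.

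**Figure D3:**
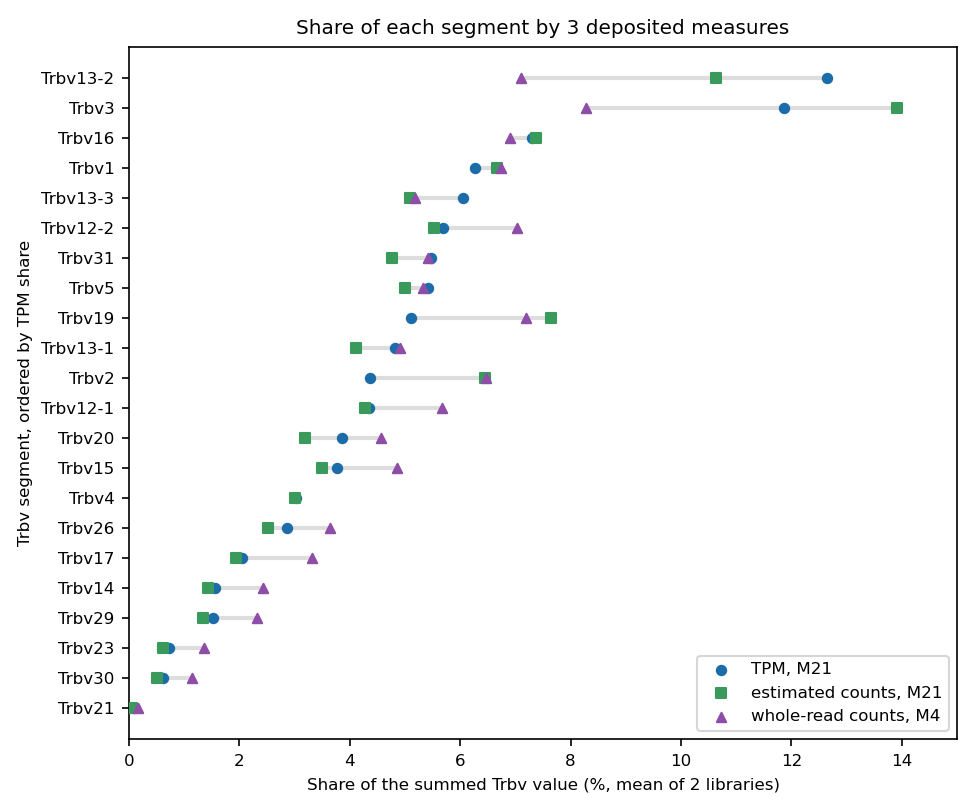
Share of the summed Trbv value (%, mean of 2 libraries) of the 22 segments not annotated as pseudogenes by TPM on M21 (circles), estimated counts on M21 (squares) and whole-read counts on M4 (triangles; Trbv4 has none). Trbv3 leads by both kinds of count and Trbv13-2 by TPM, and the M4 shares are flatter.

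The whole-read counts on the older M4 annotation have rows for 21 members, all but Trbv4 among the coding segments and none of the pseudogenes. They ranked the segments much as the estimated counts did (Spearman rho 0.98, 21 segments) but were compressed at the top. Trbv3 had 674 and 677 M4 counts, which is 24.3% and 27.6% of its estimated counts in libraries 1 and 2. Trbv13-2 had 584 and 575, or 29.2% and 28.9%. At the low end the tables met: Trbv23 had 112 and 110 M4 counts, 98.2% and 93.2% of its estimates, and Trbv30 had 77 and 108, 97.5% and 97.3%. Trbv21, with 16 and 10, was the only segment above its estimate. Per base of effective length the estimated counts reached 6.86 in library 1 and 6.84 in library 2, both for Trbv13-2, while the M4 counts reached 2.01 and 1.98, again for Trbv13-2. The cause of this flattening was not tested, and how the M4 reads were counted is not given in the sources used here. On M4 the mean share of Trbv13-2 was 7.11%, which ranked 3, below Trbv3 at 8.29% and Trbv19 at 7.19%. Trbv12-2 at 7.03% and Trbv16 at 6.89% lay close below it. The gap that set Trbv13-2 apart from these segments by TPM was thus not seen on M4. The effective number on M4 was 18.4.

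**Figure D4:**
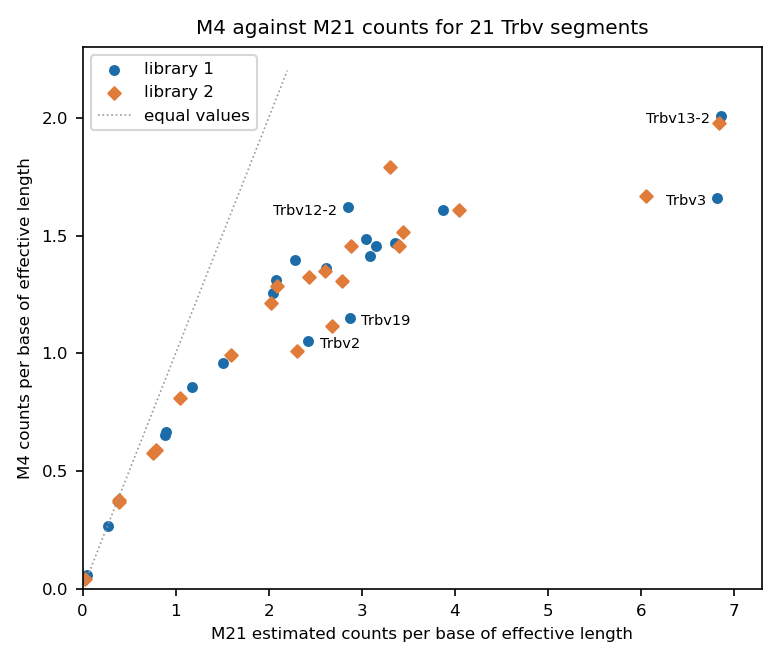
M4 counts against M21 estimated counts, each per base of effective length, for 21 Trbv segments in library 1 (circles) and library 2 (diamonds), with a dotted line at equal values. Low segments lie near the line, and the M4 values level off towards 2.01, the value of Trbv13-2 in library 1.

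The V segments were set against the constant region and against the alpha chain. The constant genes Trbc1 and Trbc2 summed to 5588 TPM in library 1 and 5509 TPM in library 2, so that summed Trbv TPM was 0.469 ± 0.0091 of summed Trbc TPM. A beta transcript holds 1 V and 1 constant region. What sets this ratio was not tested. By estimated counts the ratio was 0.250, without correction for length. The 128 alpha V segments (Trav) summed to 1610 and 1530 TPM, so summed Trbv TPM was 1.61-fold that of Trav in library 1 and 1.71-fold in library 2. For the alpha chain the ratio of V to constant TPM was 0.659 and 0.709. TPM was spread over fewer segments in the beta chain, with a leading share of 12.6% and 12.7% in the libraries against 3.83% and 3.35% in the alpha chain, and an effective number of 17.6 against 79.7. The D segments Trbd1 and Trbd2, at an effective length of 0, had 0 counts, and the 14 Trbj segments, most of them also too short for the model, had 80 and 75 counts in all.

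How far each segment moved between the libraries was tested to show the technical error behind its level. Ratios are library 1 over library 2 after TMM scaling, and each was tested with an exact two-sided binomial test on rounded estimated counts, with Benjamini-Hochberg adjustment over all 18746 tested genes. The test compares these 2 libraries, covers counting error only, and has no replicate behind it. Of the 23 tested members 7 were called at an adjusted p of 0.05, against a background of 36.5% of all tested genes. All 7 were lower in library 1, where 17.2% of all tested genes were called higher in library 2 and 19.2% higher in library 1. Trbv12-2 had 958 counts in library 1 and 1110 in library 2, a scaled ratio of 0.797 (95% interval 0.730 to 0.870; adjusted p = 3.22e-06, exact binomial test). Trbv30 had 79 and 111 counts, a ratio of 0.659 (0.486 to 0.885; adjusted p = 0.0156, exact binomial test). The others called were Trbv13-3 at 0.857, Trbv12-1 at 0.867, Trbv16 at 0.885, Trbv1 at 0.901 and Trbv13-2 at 0.927. For the other 16 the interval of the ratio included 1. The median log2 ratio was -0.11 over the 23 members and 0.00 over all tested genes, and the median size of the log2 ratio was 0.12 and 0.21. Summed Trbv counts made up 0.0546% of all counts in library 1 and 0.0579% in library 2. The same binomial test called 7 members with library totals and 6 with DESeq2 size factors, against 36.5% of all tested genes under each. With every gene that had a read it called 6 of 28 members, against 20.2% of all, and with M4 counts 1 of 21, Trbv12-2, against 14.3% of all. When the common dispersion of the libraries was allowed for, in edgeR's exact test, 0 of 23 members were called and 0 had an unadjusted p under 0.05, against 2.98% of all tested genes called. That dispersion was estimated from the same libraries, and on simulated data the test called 10 of 100 genes changed 2-fold, more than the 1.79-fold of Trbv21, the largest ratio of a member, so the 0 says nothing of how alike the libraries were.

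**Figure D5:**
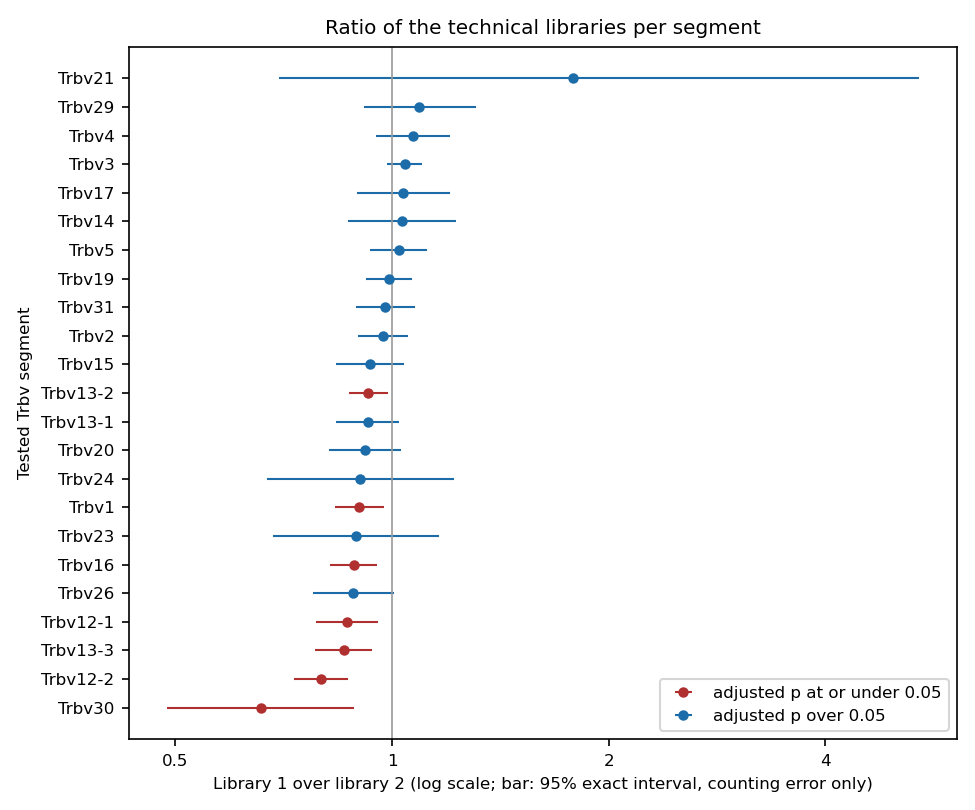
Ratio of library 1 over library 2 after TMM scaling (log axis) for the 23 tested Trbv segments, with 95% exact intervals that cover counting error only. The 7 segments in red passed the adjusted threshold and all lie below 1, while Trbv21, with 14 and 7 counts, has the widest interval.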

How the data were processed

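PolyA-selected RNA of 1 regulatory T cell sample was measured in 2 technical libraries. Per the file headers, the authors deposited estimated counts with a posterior mean and SD, effective lengths, TPM and FPKM for M21 genes and transcripts, and IsoPct, the percent of a gene's TPM that a transcript takes. Whole-number counts per M4 gene were also deposited. Per the deposited file lists both rest on mm10, the first on transcriptome and the second on genome alignments. The aligner is not given in the sources used here, nor is the counting program. Effective length was length less 49 bases in 99.9981% and 99.9906% of rows over 100 bases. Rows that name no gene (0.197% and 0.212% of estimated counts) were left out of totals and tests.

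Shares, means and SDs were computed per segment. Estimated counts were rounded for tests. Genes whose counts summed to 10 or more were scaled by TMM (edgeR 4.0.16) and tested by exact binomial tests (scipy 1.17.1). A quasi-likelihood fit needs replicates on a side and was not possible, so an exact test in edgeR that uses 1 dispersion for all genes was an alternative. DESeq2 1.42.0 gave alternative size factors. Both tests were run on simulated data over 18746 genes. The binomial test called 37 of 50 genes changed 1.25-fold, 46 of 50 changed 1.5-fold and 8 unchanged genes. Its simulated counts held counting error only, so the 8 give no error rate for the real libraries. The exact test with dispersion, on counts drawn with the common dispersion, called 10 of 100 changed 2-fold and 96 of 100 changed 4-fold. Sequences and coordinates (1-based) came from GENCODE M21 on GRCm38, and pairwise identity from global alignment (Biopython 1.88). Older names came from RefSeq, GRCm38.p6, which lists 35 of 35 members but gives no such name for many of the pseudogenes. Values are named for all members; others were set in lists. Members and lists were chosen with earlier results of these data known.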

Additional observations from a re-analysis of the deposited data

How the results depend on the processing

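The number of detected segments was 23 and ranged from 22 to 24 under every alternative minimum, unit and single library. With a minimum of 0.1 TPM 2 pseudogenes were detected, Trbv24 and Trbv22, in place of 1. The share of Trbv13-2 was 10.6% by estimated counts and 7.11% by M4 counts, against 12.6% by TPM, and 12.6% and 12.7% in the single libraries. The effective number was 17.1 by estimated counts, 17.8 by posterior mean TPM, 17.2 without pseudogenes and 18.4 by M4 counts, against 17.6, and 17.6 in each library alone. Summed Trbv over Trbc was 0.250 by estimated counts, and 0.463 to 0.475 in the single libraries. Trbv over Trav was 1.82 by estimated counts, against 1.66, and 1.61 to 1.71 in the single libraries. Between the libraries the binomial test called 7 members with library totals, 6 with DESeq2 size factors, 6 with all genes that have a read, where Trbv13-2 was not called in the last 2, and 1 with M4 counts, Trbv12-2. With the common dispersion 0 were called, by edgeR. Over all genes 6834 were called, 1740 with M4 counts and 558 with the common dispersion. The M4 test had 12186 genes and fewer reads; causes were otherwise not tested. No paired analysis was possible because there is 1 group. The depth limits Trbv21 and the pseudogenes, and the libraries are technical, so no spread between mice is known.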

Other observations

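V segments of other antigen receptors were low in the same libraries. The 7 gamma V segments (Trgv) summed to 3.26 TPM in library 1 and 2.98 TPM in library 2, from 25 and 22 estimated counts, so summed Trbv TPM was 793-fold and 879-fold as high. The gamma constant gene Tcrg-C1 stood higher than this sum, at 13.2 and 16.3 TPM. The 6 delta V segments named Trdv summed to 20.5 and 19.6 TPM. Immunoglobulin V segments of B cells were near the limit of detection: 0 of 185 Ighv and 1 of 160 Igkv segments reached 1 TPM in both libraries, with sums of 12.9 and 12.1 TPM for Ighv and 21.1 and 20.6 TPM for Igkv. Of markers of cells without a beta chain receptor, Cd79a of B cells stood at 8.77 and 8.34 TPM, Lyz2 of myeloid cells at 14.4 and 11.9 TPM, and Hbb-bs of red cells at 129.5 and 126 TPM, while of the markers of natural killer cells Ncr1 had 0 counts in both libraries and Klrb1c had 66.9 and 64. Dntt, which adds bases at the joins in developing lymphocytes, stood at 1.5 and 1.15 TPM, while Ptcra, the partner of the beta chain in thymocytes, had 0 counts in library 1 and 1 in library 2.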
